A study of Mus musculus with 6 samples.

Results

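ILC2s (group 2 innate lymphoid cells) carry no antigen receptor and respond to tissue signals by releasing type 2 cytokines. The genes described here are 10 that make or sense prostaglandins and leukotrienes, the lipid mediators derived from arachidonic acid, and they were chosen by gene symbol from the 27179 gene IDs of a read count table. They divide into 6 enzymes (Alox5, Alox5ap, Ltc4s, Ptgs1, Ptgs2 and Hpgds) and 4 receptors (Ptgdr2, Ptgir, Ptger4 and Cysltr1), and all 10 were found in the table. RNA had been sequenced from mouse ILC2s sorted through a Chat positive gate, in 3 samples, and through a Chat negative gate, in 3 samples. Chat encodes choline acetyltransferase, which makes acetylcholine. The sources used here do not give strain, age, tissue, treatment of the animals or how Chat was detected. The libraries came from sorted cells through a low-input full-length cDNA kit.

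Arachidonic acid is freed from membrane lipids by phospholipases and then taken by competing enzymes. The cyclooxygenases Ptgs1 and Ptgs2 turn it into the prostaglandin precursor, from which separate synthases make prostaglandins D, E and I. The lipoxygenase Alox5, helped by its membrane partner Alox5ap, starts the leukotrienes, and Ltc4s attaches glutathione to give the cysteinyl leukotrienes. ILC2s are known to be driven by cysteinyl leukotrienes and prostaglandin D and restrained by prostaglandins E and I, through the receptors described below.

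The libraries held 37154269 to 50361306 counts. Chat was at 188, 172 and 204 CPM (counts scaled by the library total) in the Chat positive libraries, against 16.5, 26.6 and 17.1 CPM in the Chat negative libraries. The Chat negative gate therefore also held Chat RNA. Chat was the only gene of 12967 tested that passed the threshold of 0.05 on the adjusted p of edgeR's quasi-likelihood test (log2 change 3.21, SE 0.21, adjusted p = 0.0174), so the background of calls was 0.00771%. Chat defined the gates, so its call is a check of the labels. The call was lost without Chat positive 1, Chat positive 3, Chat negative 1 or Chat negative 3. The 12 ILC2 identity genes summed to 15299 to 15789 CPM in Chat positive and 14586 to 15533 CPM in Chat negative libraries. All 12 had counts in every library, with Il2ra and Id2 the most abundant. Marker lists of other cells were detected too, each mostly through 1 gene. Dendritic cell markers summed to 135 to 158 CPM in Chat positive and 131 to 144 CPM in Chat negative libraries (mostly Xcr1), and ILC1 and NK cell markers to 76.2 to 99.6 CPM in Chat positive and 88.4 to 119 CPM in Chat negative libraries (mostly Prf1). B cell markers summed to 70.1 to 85.3 CPM in Chat positive and 66.6 to 72.7 CPM in Chat negative libraries (Cd79b), stromal markers to 59.2 to 95.9 CPM in Chat positive and 47.9 to 77.4 CPM in Chat negative libraries (Pecam1), epithelial markers to 32.6 to 56.2 CPM in Chat positive and 35.8 to 87.2 CPM in Chat negative libraries (Epcam), and T cell markers to 20.1 to 46.1 CPM in Chat positive and 25.8 to 48.4 CPM in Chat negative libraries (Cd3g). Eosinophil and neutrophil markers stayed under 15 CPM in every library. Clec9a, Cd8b1, Cdh5, Pou2f3, Trpm5 and the mast cell genes Cpa3, Mcpt4, Tpsb2 and Tpsab1 had 0 counts in all 6 libraries. The part of such cells in the results was not tested. The libraries numbered 2 stood apart from numbers 1 and 3 in both gates, with the number 2 library the highest of its gate in both gates for 33.6% of tested genes and the lowest in both for 27.4%.

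Per kb of transcript, the receptors Cysltr1, Ptgir and Ptger4 stood above all 6 enzymes in both gates, while Ptgdr2 stood among the lowest members. Summed over the 4 receptors, the level was 1253 ± 73.5 CPM in Chat positive and 1235 ± 95.4 CPM in Chat negative libraries (SD, n = 3 each), while the 6 enzymes summed to 29.0 ± 1.68 CPM in Chat positive and 23.5 ± 1.92 CPM in Chat negative libraries. Cysltr1 held 73.1% to 82.4% of the receptor sum in a library, and Hpgds held 58.2% to 79.9% of the enzyme sum. Neither group of genes had a member past the threshold, with 0 of 5 tested enzymes and 0 of 4 receptors called beside the background of 0.00771%. DESeq2 also called 0 of the members, with a background of 0.0308%, and gave Ptgs2 an unadjusted p of 0.0487. The levels of the gates overlapped for all 10 members, while over all genes tested the gates did not overlap for 8.32% (5.28% with Chat positive higher and 3.04% with Chat negative higher). The enzyme sum did not overlap, at 27.2 to 30.5 CPM in Chat positive and 21.5 to 25.3 CPM in Chat negative libraries, and is given as a description with no test. At an unadjusted p under 0.05, edgeR gave 0 of the 9 tested members, against 2.43% of all genes tested.

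**Figure D1:**
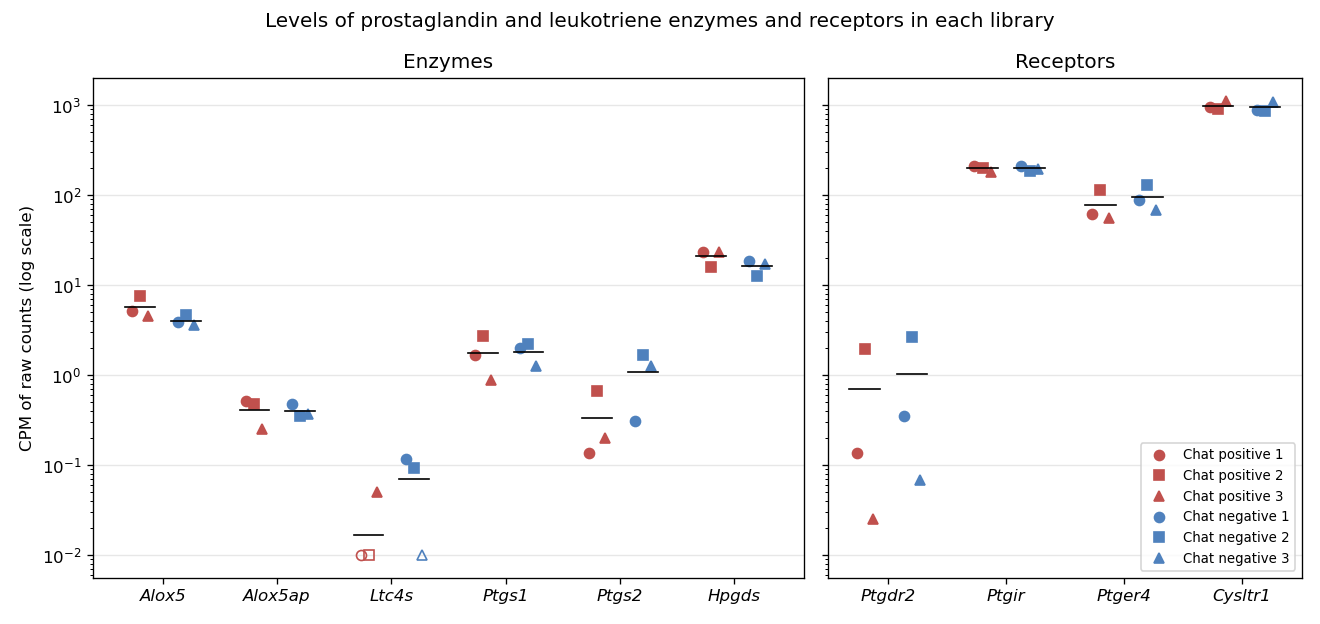
Level of each gene in each library, as CPM of raw counts on a log axis, with enzymes on the left and receptors on the right. Red is Chat positive and blue Chat negative, the marker shape gives the replicate number, black bars are means over 3 libraries, and open markers at the bottom are libraries with 0 counts. Cysltr1 lies between 896 and 1103 CPM in Chat positive and between 859 and 1081 CPM in Chat negative libraries, while Ltc4s is at 0 in 3 libraries.

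Divided by the length of the longest annotated transcript, the means of the members had the same order from first to sixth in both gates. Cysltr1 was at 191 ± 21.2 CPM per kb in Chat positive and 183 ± 23.5 CPM per kb in Chat negative libraries (SD, n = 3 each), followed by Ptgir, Ptger4, Hpgds, Alox5 and Ptgs1. Down to Alox5 against Ptgs1, the libraries of neighbours did not overlap in either gate. From Ptgs1 down each neighbour overlapped the next in both gates, so the sixth place was not resolved either. Some members further apart did not overlap: in both gates Ptgs1 lay wholly above Ptgs2 and Ltc4s, and Alox5ap wholly above Ltc4s. Alox5ap also lay wholly above Ptgs2 in Chat positive libraries and wholly below Ptgs1 in Chat negative libraries. Ptgdr2 had the widest range and in Chat negative 2 reached into the range of Alox5. The order was the same when the longest protein-coding transcript gave the length. Per kb, Cysltr1 lay above 97.6% of tested genes, Ptgir above 89.5%, Ptger4 above 74.1% and Hpgds above 39.7%.

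Among the leukotriene enzymes, Alox5 (mm10 chromosome 6, 116410071 to 116461178) encodes arachidonate lipoxygenase. It was at 5.11, 7.57 and 4.52 CPM in Chat positive 1, 2 and 3, against 3.83, 4.59 and 3.56 CPM in Chat negative 1, 2 and 3. Only Chat positive 3 lay within the range of the Chat negative libraries, and each Chat positive library was above the Chat negative library of its number. The log2 change was 0.50 (SE 0.26, edgeR adjusted p = 1.00) and did not pass, and it was 0.26 without Chat positive 2.

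Alox5ap (chromosome 5, 149265004 to 149288153) encodes the membrane protein that presents arachidonic acid to Alox5. It had 19, 24 and 10 counts in Chat positive libraries, or 0.511, 0.477 and 0.248 CPM, against 20, 15 and 16 counts in Chat negative libraries, or 0.471, 0.348 and 0.363 CPM. The gates overlapped, and the spread in Chat negative libraries was within counting noise (chi-square per degree of freedom 0.486, and 2.00 in Chat positive libraries). With so few counts the log2 change of 0.05 had an SE of 0.48, and its sign turned when single libraries were left out (-0.14 to 0.29).

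Ltc4s (chromosome 11, 50236461 to 50238532), the enzyme that makes leukotriene C, had 0, 0 and 2 counts in the Chat positive libraries and 5, 4 and 0 counts in the Chat negative libraries. It did not pass the filter on low counts and was not tested. In the libraries with 0 counts, the limit that 3 counts set was 0.0807 CPM in Chat positive 1, 0.0596 CPM in Chat positive 2 and 0.0681 CPM in Chat negative 3, for counting error only. It was at or near the detection floor in every library.

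Among the prostaglandin enzymes, Ptgs1 (chromosome 2, 36216742 to 36258593), the cyclooxygenase that most tissues express constantly, was at 1.64, 2.68 and 0.869 CPM in Chat positive libraries, against 1.98, 2.20 and 1.27 CPM in Chat negative libraries. The Chat positive libraries spread both above and below the Chat negative ones. Its log2 change was -0.09 (SE 0.46). Some exonic bases of Alox5ap (189), Ltc4s (268) and Ptgs1 (148) overlap annotated transcripts on the opposite strand, and the strand setting of the counting is unknown, so such reads cannot be told apart.

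Ptgs2 (chromosome 1, 150100031 to 150108234), the inducible cyclooxygenase, had the largest estimated difference of the tested members. It was at 0.135, 0.655 and 0.199 CPM in Chat positive 1, 2 and 3, against 0.306, 1.67 and 1.25 CPM in Chat negative 1, 2 and 3. Each Chat positive library was below the Chat negative library of its number, but Chat positive 2 lay above Chat negative 1. The values rest on 5, 33 and 8 counts in Chat positive and 13, 72 and 55 counts in Chat negative libraries. The exact Poisson 95% interval of the lowest, Chat positive 1, ran from 0.0437 to 0.314 CPM, for counting error only. The log2 change was -1.70 (SE 0.82, edgeR adjusted p = 1.00) and did not pass. Without Chat positive 2 it was -2.67, and over the alternatives that gave one the adjusted p ranged from 0.166 to 1.00. As everywhere in these bulk samples, fewer cells with the RNA and less RNA per cell cannot be told apart.

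Hpgds (chromosome 6, 65117293 to 65144981), the prostaglandin D synthase of blood cells, was the most abundant enzyme in CPM and per kb. It was at 23.1, 15.8 and 23.4 CPM in Chat positive 1, 2 and 3, against 18.6, 12.6 and 17.2 CPM in Chat negative 1, 2 and 3. It was higher in the Chat positive library for each number, by 0.32, 0.34 and 0.45 on the log2 scale, while the number 2 library was the lowest of each gate. The log2 change was 0.35 (SE 0.23, edgeR adjusted p = 1.00) and did not pass, and it was 0.19 without Chat negative 2. Basophils and mast cells also express this enzyme. Their summed marker levels were 160 to 284 CPM for mast cells and 40.4 to 152 CPM for basophils in Chat positive libraries, against 156 to 249 CPM for mast cells and 49.4 to 207 CPM for basophils in Chat negative libraries. Kit and Mcpt8 made up most of these sums. Of the listed markers, 5 of 9 for mast cells and 2 of 5 for basophils had 0 counts in all libraries, among them Cpa3, Ms4a2 and Prss34, and Fcer1a had at most 2 counts in a library. The part of such cells in the Hpgds values was not tested.

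Among the receptors, Cysltr1 (chromosome X, 106576509 to 106603679), which binds cysteinyl leukotrienes, was at 939.9, 896 and 1103 CPM in Chat positive 1, 2 and 3, against 885, 859 and 1081 CPM in Chat negative 1, 2 and 3. The gates overlapped almost fully, and within each number the Chat positive library was higher by 0.09, 0.06 and 0.03 on the log2 scale. In CPM, Cysltr1 lay above 99.1% of tested genes. The log2 change was 0.04 (SE 0.14).

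Ptgir (chromosome 7, 16906490 to 16910905), the receptor for prostacyclin, was the steadiest member. It was at 212, 198 and 179 CPM in Chat positive libraries, against 211, 185 and 196 CPM in Chat negative libraries, a span of 1.18-fold over all 6 libraries. Its log2 change was -0.02 (SE 0.11).

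Ptger4 (chromosome 15, 5233399 to 5244187), a prostaglandin E receptor that raises cyclic AMP, was at 60.7, 113 and 55.9 CPM in Chat positive 1, 2 and 3, against 88.0, 128 and 68.3 CPM in Chat negative 1, 2 and 3. It was lower in the Chat positive library for each number, by 0.54, 0.19 and 0.29 on the log2 scale, while the number 2 library was the highest of each gate. The log2 change was -0.33 (SE 0.32, edgeR adjusted p = 1.00). With the replicate block it was -0.35 (SE 0.08, edgeR adjusted p = 0.102). DESeq2 with the block called it lower (log2 change -0.36, SE 0.09, adjusted p = 0.00740), a fit that called 3.56% of all genes tested. Limma-voom with the block did not call it (adjusted p = 0.146). The blocked edgeR fit without both libraries of number 3 also called it (-0.37, adjusted p = 0.00591), a fit that called 709 of 13055 genes tested. Over all alternatives the adjusted p of Ptger4 ranged from 0.00591 to 1.00. In edgeR without the block, the change was -0.20, -0.71 and -0.17 without Chat positive 1, 2 and 3, and -0.06 and -0.51 without Chat negative 2 and 3. Of the 6648 exonic bases of Ptger4, 1015 overlap a processed pseudogene and 82 overlap Ttc33, both on the opposite strand. Ttc33 was at 33.1 to 40.5 CPM in Chat positive and 32.7 to 36.9 CPM in Chat negative libraries.

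Ptgdr2 (chromosome 19, 10924519 to 10942511), the prostaglandin D receptor known as CRTH2, followed the replicate number. It had 5, 98 and 1 counts in Chat positive 1, 2 and 3, or 0.135, 1.95 and 0.0248 CPM, against 15, 115 and 3 counts in Chat negative 1, 2 and 3, or 0.353, 2.67 and 0.0681 CPM. The number 2 library was by far the highest of each gate. The span over the 6 libraries was 107-fold, the widest of the members with counts in every library. Its log2 change of -0.55 had an SE of 1.53. Without Chat positive 2 the estimate was -3.66, and without Chat negative 2 it was 1.71, the opposite sign. Of its 2644 exonic bases, 1031 overlap exons of Ccdc86 on the opposite strand. Ccdc86 itself was also highest in number 2, at 21.1, 35.1 and 17.3 CPM in Chat positive 1, 2 and 3 and at 19.9, 39.4 and 17.3 CPM in Chat negative 1, 2 and 3. The basophil marker Cd200r3 moved with it as well, at 14.9 CPM in Chat positive 2 and 18.4 CPM in Chat negative 2, against 3.66 to 8.31 CPM in the other 4 libraries, while Mcpt8 went the other way, at 25.5 CPM in Chat positive 2 and 31.0 CPM in Chat negative 2 against 123 to 199 CPM. The part of Ccdc86 reads or of basophils in the Ptgdr2 counts was not tested.

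**Figure D2:**
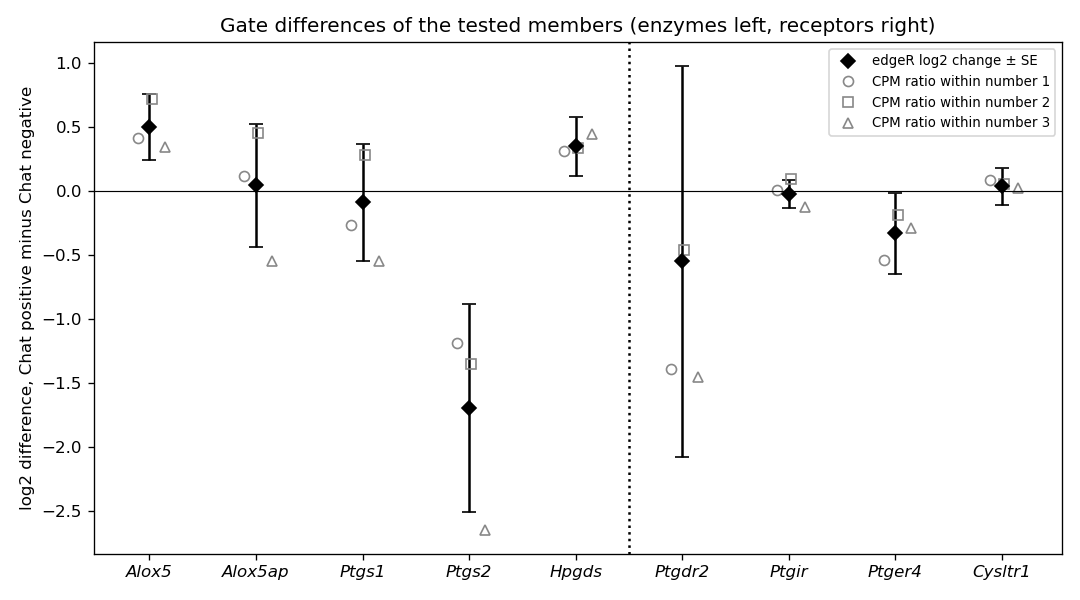
Difference between the gates for the 9 tested members, on the log2 scale, Chat positive minus Chat negative. Black diamonds are edgeR log2 changes with bars of 1 SE (no replicate block), and grey open markers are the CPM ratios within replicate numbers 1, 2 and 3. Ptgs2 lies lowest at -1.70, with all 3 ratios below 0, while Ptgir at -0.02 and Cysltr1 at 0.04 lie nearest to 0.

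Within the replicate numbers, 3 members were higher in the Chat positive library for all 3 numbers (Alox5, Hpgds and Cysltr1), against 25.5% of all genes tested. Another 3 were lower for all 3 numbers (Ptgs2, Ptgdr2 and Ptger4), against 15.1% of all genes tested. For Ptgdr2 the order in number 3 rests on 1 count against 3. Of the 9 tested members, 5 (Alox5, Ptgs1, Ptgs2, Ptgdr2 and Ptger4) had the number 2 library as the highest of its gate in both gates, and 2 (Hpgds and Cysltr1) had it as the lowest in both. Alox5, Ptgs1 and Ptgs2 are also genes of myeloid cells. The sum of the 8 listed macrophage and monocyte markers was lowest in number 2, at 8.48 CPM in Chat positive and 8.07 CPM in Chat negative libraries. It reached 23.8 CPM in Chat positive and 24.2 CPM in Chat negative libraries, nearly all of it Cd68 and Adgre1. The defining markers Csf1r and Lyz2 had at most 5 counts in a library. Neutrophil markers also varied within each gate, with sums of 2.24 to 14.25 CPM in Chat positive and 2.69 to 14.5 CPM in Chat negative libraries. The part of such cells in the enzyme values was not tested. Once the replicate number was added as a block, edgeR gave an unadjusted p under 0.05 for 4 of the 9, against 16.5% of all genes tested. These were Alox5 (log2 change 0.48), Ptgs2 (-1.75), Hpgds (0.35) and Ptger4 (-0.35). None of the 9 passed on the adjusted p of that fit, which called 0.339% of all genes tested, and the edgeR adjusted p values of the 4 were 0.250, 0.166, 0.162 and 0.102, in that order. Without both libraries of number 2, no member passed in edgeR and Ptgdr2 was no longer tested, with Ptgs2 at a log2 change of -2.22 (adjusted p = 0.554), Ptger4 at -0.44 (adjusted p = 0.516), Hpgds at 0.36 (adjusted p = 0.549) and Alox5 at 0.36 (adjusted p = 0.684). The unadjusted edgeR p was under 0.05 for the first 3 of these and 0.183 for Alox5. That fit, without the block, gave an unadjusted p under 0.05 to 1154 of 13025 genes tested.

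**Figure D3:**
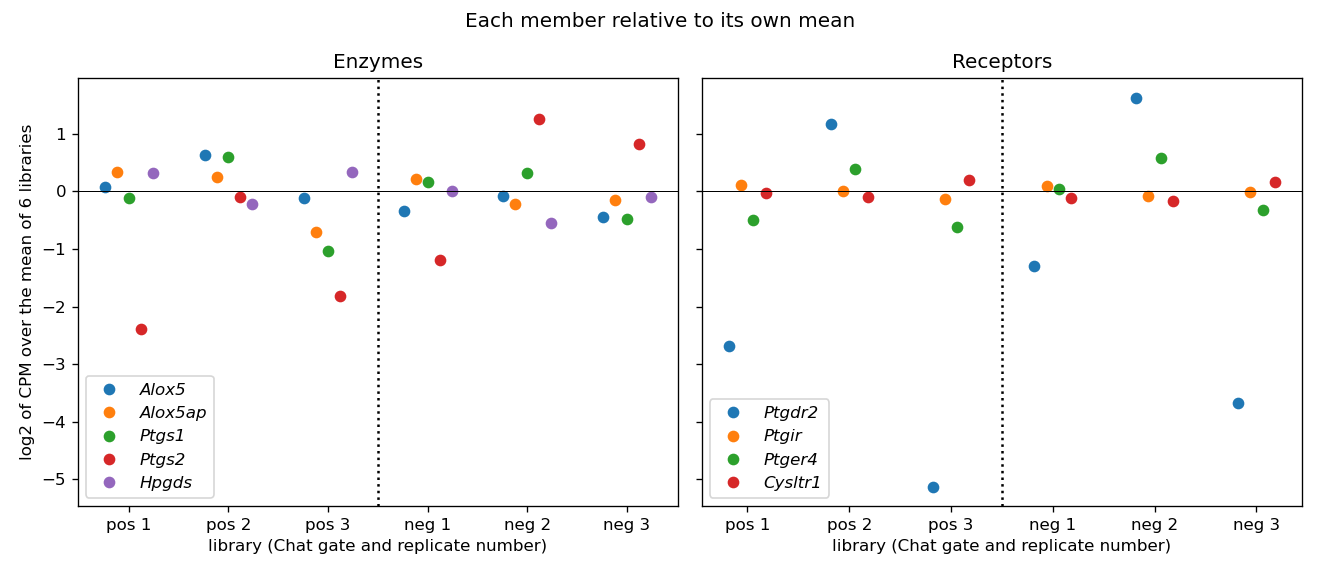
Each tested member relative to its own mean over the 6 libraries, as log2 of CPM over that mean, for enzymes (left) and receptors (right). The x axis gives the library by gate and replicate number. Ptgdr2 stands high in both number 2 libraries and lowest in the number 3 libraries, while Ptgir and Cysltr1 stay near 0 throughout.

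Promoters of the 3 members lower in the Chat positive library for all numbers were compared, to show how far they are alike. The windows were the 250 bases before the RefSeq start sites (build GRCm38.p6). The 3 were picked by their order in these same data, which 15.1% of all genes tested shared. None of the 3 passed in the main edgeR fit. Promoters were listed for 8 of the 10 members, and the window of Ptgs1, not shown, lies inside the annotated span of that gene. The sequences are shown 5′ to 3′ on the strand of the gene, with every CG pair in capitals. The Ptgs2 window is chr1:150099781-150100030 on the plus strand, that of Ptgdr2 is chr19:10936910-10937159 on the plus strand and lies inside the annotated span of the gene, and that of Ptger4 is chr15:5244188-5244437 on the minus strand.
Ptgs2: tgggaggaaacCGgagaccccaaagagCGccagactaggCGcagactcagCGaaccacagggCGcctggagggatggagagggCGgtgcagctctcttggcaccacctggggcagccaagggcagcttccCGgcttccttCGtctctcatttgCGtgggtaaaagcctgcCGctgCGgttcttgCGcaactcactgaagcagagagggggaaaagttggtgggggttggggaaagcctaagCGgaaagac
Ptgdr2: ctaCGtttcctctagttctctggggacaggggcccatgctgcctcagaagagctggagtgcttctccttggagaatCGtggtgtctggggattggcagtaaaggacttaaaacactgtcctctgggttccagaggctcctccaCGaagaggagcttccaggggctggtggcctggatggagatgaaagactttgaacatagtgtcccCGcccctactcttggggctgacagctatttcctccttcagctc
Ptger4: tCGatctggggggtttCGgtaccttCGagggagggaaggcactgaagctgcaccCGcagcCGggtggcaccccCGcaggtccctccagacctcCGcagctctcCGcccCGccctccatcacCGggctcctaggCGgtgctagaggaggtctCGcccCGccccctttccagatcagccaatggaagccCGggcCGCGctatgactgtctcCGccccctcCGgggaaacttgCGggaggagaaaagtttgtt
They differed in CG content, with 13 CG pairs before Ptgs2, 4 before Ptgdr2 and 19 before Ptger4. Of all 32851 listed promoters, 31.5%, 62.2% and 19.7%, in that order, had at least as many. A search of both strands for the TATA box TATAAA, the cyclic AMP response half-site TGACG, the E-box CACGTG and the GATA motif AGATAA found none of them in the 8 member promoters. They occur in 12.4%, 17.8%, 6.02% and 9.99% of all listed promoters, in that order. No match says only that these letters are absent from the windows. Bases past the annotated starts were not searched, so sites of these genes that lie there would be missed.

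The rest of the pathway was covered by 8 lists of 104 genes, of which 78 were tested. None of the 78 passed in edgeR, with or without the block, and the count at an unadjusted p under 0.05 was 0 without the block and 13 with it, beside a background of 16.5% with the block. The gates did not overlap for 3 of the 78 (3.85%, against 8.32% of all genes tested), which were Lpcat2 and Ptgr1, higher in Chat positive, and Pla2g6, higher in Chat negative. DESeq2 with the block, which called 3.56% of all genes tested, called 6 of the 78. It gave no adjusted p to some of the 78, among them Lpcat2, Pla2g4a, Mgst2, Ptger2, Nr4a2 and Rgs2, so these could not be called. Both shares count genes without an adjusted p as not called.

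Genes that free arachidonic acid from lipids or return it had 14 of 21 members tested, 10 above 0 and 4 below, with a median log2 change of 0.06 against 0.00 over all genes tested. The most abundant were Lpcat3, which puts arachidonic acid back into phospholipids, at 318, 394 and 279 CPM in Chat positive and 354, 437 and 316 CPM in Chat negative libraries, and the arachidonate-activating enzyme Acsl4, at 176, 197 and 212 CPM in Chat positive and 165, 168 and 212 CPM in Chat negative libraries. Lpcat3 was among the 6 called by DESeq2 with the block, as lower (log2 change -0.19, adjusted p = 0.0357). Log2 changes of the members with the smallest p were -0.23 (SE 0.15) for Faah, -0.19 (SE 0.12) for Mboat7, 0.50 (SE 0.33) for Lpcat2 and -0.20 (SE 0.14) for the calcium-independent phospholipase Pla2g6. Pla2g4a, the phospholipase best known for supplying these pathways, was named after its values were seen and stood at 0.727, 2.44 and 0.571 CPM in Chat positive and 0.988, 1.21 and 0.477 CPM in Chat negative libraries.

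Of 10 listed prostaglandin synthases and related reductases, 7 were tested, with 5 above 0 and 2 below and a median log2 change of 0.04. Ptges, which makes prostaglandin E from the cyclooxygenase product, was at 12.3, 10.4 and 15.3 CPM in Chat positive 1, 2 and 3, against 6.99, 4.52 and 11.5 CPM in Chat negative 1, 2 and 3. It was higher in the Chat positive library for each number, and only Chat negative 3 reached into the Chat positive range. Its log2 change was 0.70 (SE 0.36) without the block and 0.78 (SE 0.17, edgeR adjusted p = 0.102) with it, and DESeq2 with the block called it higher (adjusted p = 0.0133). The most abundant members, the carbonyl reductase Cbr1 and the aldose reductase Akr1b3, had log2 changes of 0.10 (SE 0.27) and 0.19 (SE 0.16), and Ptges3 one of 0.04 (SE 0.19).

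Partners of leukotriene synthesis had 7 of 9 members tested, 4 above 0 and 3 below, with a median of 0.04. Lta4h, which makes leukotriene B, was at 179.6, 207 and 139 CPM in Chat positive and 174, 238 and 168 CPM in Chat negative libraries, so its level stood far above that of Ltc4s also per kb (54.3 against 0.0231 CPM per kb in Chat positive libraries and 60.0 against 0.0980 in Chat negative libraries). The Alox5-binding protein Cotl1 was at 472, 247 and 166 CPM in Chat positive and 271, 337 and 185 CPM in Chat negative libraries. Mgst2, which can also make leukotriene C, had a log2 change of 0.22 (SE 0.42), Mgst3 one of 0.09 (SE 0.24) and Dicer1 one of -0.20 (SE 0.22). Of 6 other lipoxygenases only Alox8 was tested, at 169, 103 and 166 CPM in Chat positive and 185, 117 and 188 CPM in Chat negative libraries. Alox15, the next by level, was at 0 to 0.139 CPM in Chat positive and 0.0235 to 0.673 CPM in Chat negative libraries.

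Genes for export and breakdown had 8 of 11 members tested, 5 above 0 and 3 below, with a median of 0.05. The leukotriene exporter Abcc1 had a log2 change of -0.09 (SE 0.11), the prostaglandin reductases Ptgr1 and Ptgr2 0.34 (SE 0.18) and 0.14 (SE 0.15), and Cyp4f16 -0.04 (SE 0.15). Ptgr1 was at 15.7, 19.9 and 15.3 CPM in Chat positive and 11.3, 14.0 and 14.4 CPM in Chat negative libraries.

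Of 13 other receptors 8 were tested, 3 above 0 and 5 below, with a median of -0.04. Ltb4r1, which binds leukotriene B, was the most abundant at 435, 380.4 and 386 CPM in Chat positive and 443, 357 and 445 CPM in Chat negative libraries. Per kb it stood above Cysltr1, at 287 CPM per kb in Chat positive and 298 CPM per kb in Chat negative libraries. Ptger3, a prostaglandin E receptor that lowers cyclic AMP, was at 28.3, 13.2 and 31.0 CPM in Chat positive 1, 2 and 3, against 46.7, 16.2 and 48.0 CPM in Chat negative 1, 2 and 3. It was lower in the Chat positive library for each number, and lowest in number 2 of each gate, the reverse of Ptger4. Its log2 change was -0.63 (SE 0.48) without the block and -0.57 (SE 0.11, edgeR adjusted p = 0.0729) with it, and DESeq2 with the block called it lower (-0.58, adjusted p = 7.34e-04). Ptger1 had a log2 change of -0.19 (SE 0.18) and Ptger2 one of 0.20 (SE 0.31). Ptgdr, Ptgfr and Fpr2, named after their counts were seen, had 0 counts in all 6 libraries.

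Genes that couple these receptors to G proteins and adenylyl cyclase were all tested, with 5 of 22 above 0 and 17 below and a median of -0.17, against 50.9% above 0 among all genes tested. The most abundant, the stimulatory subunit Gnas and the inhibitory subunit Gnai2, had log2 changes of -0.26 (SE 0.14) and -0.13 (SE 0.10). The smallest p values belonged to Arrb1 (-0.31, SE 0.15), an arrestin that ends receptor signalling, Gnaq (-0.37, SE 0.18), Grk6 (-0.49, SE 0.26) and Gnas. Arrb1 and Gnas were called lower by DESeq2 with the block (adjusted p = 0.00309 and 0.0290). Of 12 genes known to be induced by cyclic AMP 11 were tested, 4 above 0 and 7 below, with a median of -0.10. Crem, which cyclic AMP induces, was at 261, 201 and 305 CPM in Chat positive and 208, 166 and 265 CPM in Chat negative libraries. It was called higher by DESeq2 with the block (log2 change 0.24, adjusted p = 0.0118). The phosphodiesterase Pde4b, the most abundant of the list, had a log2 change of 0.07 (SE 0.42), and Nr4a1, Nr4a2 and Rgs2 had 0.26 (SE 0.21), 0.96 (SE 0.70) and -0.21 (SE 0.21).

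**Figure D4:**
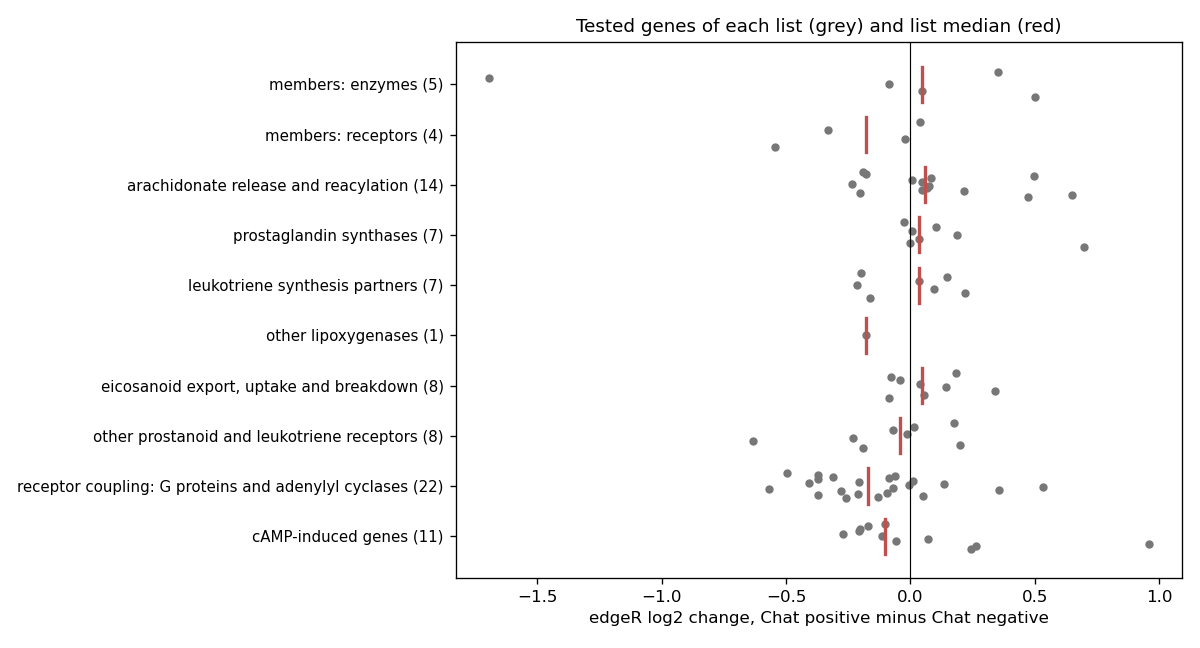
edgeR log2 change, Chat positive minus Chat negative, of every tested gene (grey points) in the enzyme and receptor members and in 8 other lists of the pathway, with the number tested in parentheses and the list median as a red bar. No point passed the threshold, and the medians lie between -0.18 and 0.06.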

How the data were processed

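RNA of 6 sorted samples was sequenced. The authors deposited raw read counts per Entrez gene ID (whole numbers whose sums differ between libraries). Per the submitters' processing notes, CASAVA 1.8.2, STAR 2.3.0 and the mm10 build were used, while the counting program and its strand setting are not stated. Symbols came from RefSeq (GRCm38.p6), which matched 25275 of 27179 IDs, and transcript lengths and exon overlaps from GENCODE vM21. CPM are counts over the library total. Tests used edgeR 4.0.16 in R 4.3.3, with filterByExpr, TMM scaling, a robust quasi-likelihood F-test (two-sided) and Benjamini-Hochberg adjustment over all 12967 genes, as Chat positive minus Chat negative. SE are those that the F statistic implies. Alternatives used limma 3.58.1 and DESeq2 1.42.0. Only edgeR with and without the block, and limma-voom and DESeq2 without it, were run on simulated data. Those data held no effect of the replicate number, so they do not test the blocked fits on such an effect. Replicate libraries all differed by more than sampling noise (lowest chi-square per degree of freedom 29.9). No label gives the animals behind the samples, so p-values reflect the spread between these samples alone, and that spread may be technical. No label says that the numbers 1, 2 and 3 pair the gates, and in the data only number 2 paired clearly. Deviations from the gate mean correlated across genes at 0.39, 0.78 and 0.52 between libraries of the same number. Chat negative 1 correlated more with Chat positive 3 (0.42) than with Chat positive 1 (0.39). The blocked fits and the comparisons within numbers treat all 3 numbers as pairs. The members and lists were chosen with earlier results of these data known. Named are all members, and from each pathway list up to 4 tested genes by smallest p and the 2 most abundant, with any other gene marked as chosen after its values were seen.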

Additional observations from a re-analysis of the deposited data

How the results depend on the processing

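Alternatives were other scalings, other low-count filters, the replicate block, non-robust dispersions, DESeq2, limma-voom and leaving out each library. Fits without both libraries of a number, and the pathway count under DESeq2 with the block, were added after the data were seen. In the main edgeR fit 1 gene passed, as with other scalings and filters. Non-robust dispersions and limma-voom, each with or without the block, also gave 1. Counts were 44 with the block added to the main edgeR fit, 4 with DESeq2 and 461 with DESeq2 and the block. In edgeR they were 0 to 1 without single libraries and 2 without both libraries of number 2. With the block and without both libraries of number 1, 2 or 3 they were 0, 3 and 709, of 13123, 13025 and 13055 genes tested. Among receptors 1 was called under DESeq2 with the replicate block and 1 under the edgeR block without number 3, and both calls were Ptger4 (log2 change -0.36 and -0.37). DESeq2 with the block called 6 pathway genes. No enzyme was called under any alternative, but DESeq2 with the block gave an adjusted p to only 4 of the 9 tested members, Hpgds alone among the enzymes. The cause of these differences was not tested.

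Alox5 and Ptgs2 kept the sign of their log2 change under the 20 alternatives that gave them an adjusted p, and Hpgds and Ptger4 under 22. DESeq2 with the block put Alox5 at 0.47 and Ptgs2 at -1.76 with no adjusted p. Without single libraries Alox5 ranged from 0.26 to 0.63, Hpgds from 0.19 to 0.52, Ptgs2 from -2.67 to -1.25 and Ptger4 from -0.71 to -0.06. Signs turned without single libraries for Alox5ap (-0.14 to 0.29), Ptgs1 (-0.54 to 0.21), Ptgdr2 (-3.66 to 1.71), Ptgir (-0.090 to 0.026) and Cysltr1 (-0.074 to 0.16). With the block and without number 1 or 2, Alox5ap was at -0.054 and -0.21, and without number 2 and no block at -0.16. DESeq2 with the block put Alox5ap at -0.0063, also with no adjusted p. With the block and without number 3, Ptgs1 was at 0.0057 and Ptgir at 0.041. TMM-scaled CPM moved no member's level by more than its SD. Among the members with an adjusted p, the replicate block with all 6 libraries changed no other call than that of Ptger4 in DESeq2. Low counts limit Alox5ap (at most 24 in a library), Ltc4s (at most 5) and, in Chat positive libraries, Ptgs2 (at most 33). They also limit Ptgdr2 in the libraries of numbers 1 and 3 (1 to 15).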
